A study of Mus musculus with 15 samples.

Results

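The genes described are the Wnt ligands, their receptors and their modulators in mouse lung. They were chosen by name: every gene whose symbol is a Wnt, Fzd, Sfrp, Dkk or Rspo number, together with Frzb, Lgr4, Lgr5, Lgr6, Lrp5, Lrp6, Porcn, Wif1, Axin1, Axin2, Nkd1, Nkd2, Apcdd1, Lef1, Tcf7, Tcf7l1 and Tcf7l2. The rule gave 59 genes, of which 58 have a probe set annotated to the gene alone among the 18193 genes so covered, and no such probe set was found for Tcf7. The brightest of these probe sets stood for each gene. A mean signal above 100 over all 15 arrays was asked for before a test, since lower signals lie near the background of the array, and 32 of the 58 passed, within 11603 genes tested in all.

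Tissues of 3 kinds were compared on Affymetrix mouse arrays with 5 arrays each. Dysplasia was cut by laser microdissection from lungs of SP-C/c-raf transgenic mice aged 5 to 7 months, in which the surfactant protein C promoter drives c-raf-1, a kinase of the MAP kinase cascade, in respiratory epithelium. Transgenic samples were unaltered lung tissue of the same dysplasia-bearing mice, so both groups carry the transgene. The methods describe sectioning and microdissection for every frozen lung, and not for dysplasia alone. Non-transgenic samples came from wild-type littermates aged 7 to 10 months, so that age and genotype cannot be told apart in comparisons with them. The line was held on a C57BL/6 background, and by the protocol each array holds tissue of a single mouse. Values are scaled signals in arbitrary units, listed in the order of the array numbers 1 to 5, and means are given ± SD over 5 arrays.

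Wnt proteins are secreted, lipid-modified ligands that bind Frizzled receptors together with the co-receptors Lrp5 or Lrp6. Binding inhibits a destruction complex built on Axin, so that beta-catenin accumulates and activates transcription with Tcf and Lef factors. R-spondins, through Lgr receptors, keep Frizzled proteins at the cell surface, whereas Sfrp, Dkk and Wif1 proteins hold ligands or co-receptors back. In the lung, Wnt2 is known for specifying the respiratory field, Wnt7b for signalling from epithelium to mesenchyme, and Axin2 as a general reporter of pathway activity.

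Several features of the arrays go with the groups. The array named dysplasia 4 carried Xist, the X-inactivation transcript, at 9674 beside the Y-linked Kdm5d at 398, and no other array carried both at such levels. Transgenic 4, of the same number, read 85.0 and 567. Whether dysplasia 4 holds tissue of a single mouse, and of the same mouse as transgenic 4, is therefore in doubt, and all values of that array carry this doubt. Kdm5d exceeded 100 on 4 dysplasia, 4 transgenic and 1 non-transgenic arrays, so sex differs between the mice with and without the transgene. The ratio of 5' to 3' actin signal, a measure of RNA integrity, ranged from 12.5% to 75.2%, with medians of 57.1% in dysplasia, 38.9% in transgenic tissue and 31.0% in non-transgenic tissue. One label of transgenic 2 reads tumor while its title reads unaltered and is marked as corrected from another array code. The array was used as transgenic.

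More of these genes were lower than higher in dysplasia, compared with either other tissue. Against transgenic tissue 14 of the 32 tested genes were lower and 4 were higher at an adjusted p under 0.05 (limma), and 14 gave no call. The lower share, 43.8%, stands beside 21% of all tested genes, and the higher share, 12.5%, beside 18.6%. Every dysplasia array lay below every transgenic array for 10 of the genes and above it for 2, where 16.6% and 14.7% of all genes do so. The median log2 change of the 32 genes was -0.31, against -0.01 for all genes.

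Against non-transgenic tissue 19 genes were lower and 2 higher. These are 59.4% and 6.25% of the tested genes, beside 26% and 24.7% of all genes. Dysplasia lay wholly below in 13 genes and wholly above in 1, beside 20.5% and 19.4% of all genes. All 14 genes that were lower against transgenic tissue were also lower here, and Fzd2, Fzd3, Lgr4, Lrp5 and Lrp6 joined them. Both comparisons use the same 5 dysplasia arrays. Called in no comparison were Axin1, Fzd1, Fzd6, Fzd8, Porcn, Sfrp1, Tcf7l1, Wnt5a and Wnt7a.

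The limit on signal weighs on these counts. Its mean runs over 10 arrays without dysplasia and 5 with it, so a gene that is bright in all but dysplasia passes more easily than one bright in dysplasia alone. Rspo1 and Sfrp2 had dysplasia means under 100 and passed through the other groups, so they had to differ in order to be tested, and their calls support nothing about the set. Without them 12 of 30 genes were lower (40%) and 4 higher against transgenic tissue, and 17 and 2 against non-transgenic tissue. Dkk2, by contrast, was above 100 in dysplasia alone and went untested. When the limit was dropped for all 58 genes, 15 were lower and 7 higher against transgenic tissue, beside 14.6% and 12.4% of all genes, and 22 and 5 against non-transgenic tissue, beside 19% and 16.3%.

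**Figure D1:**
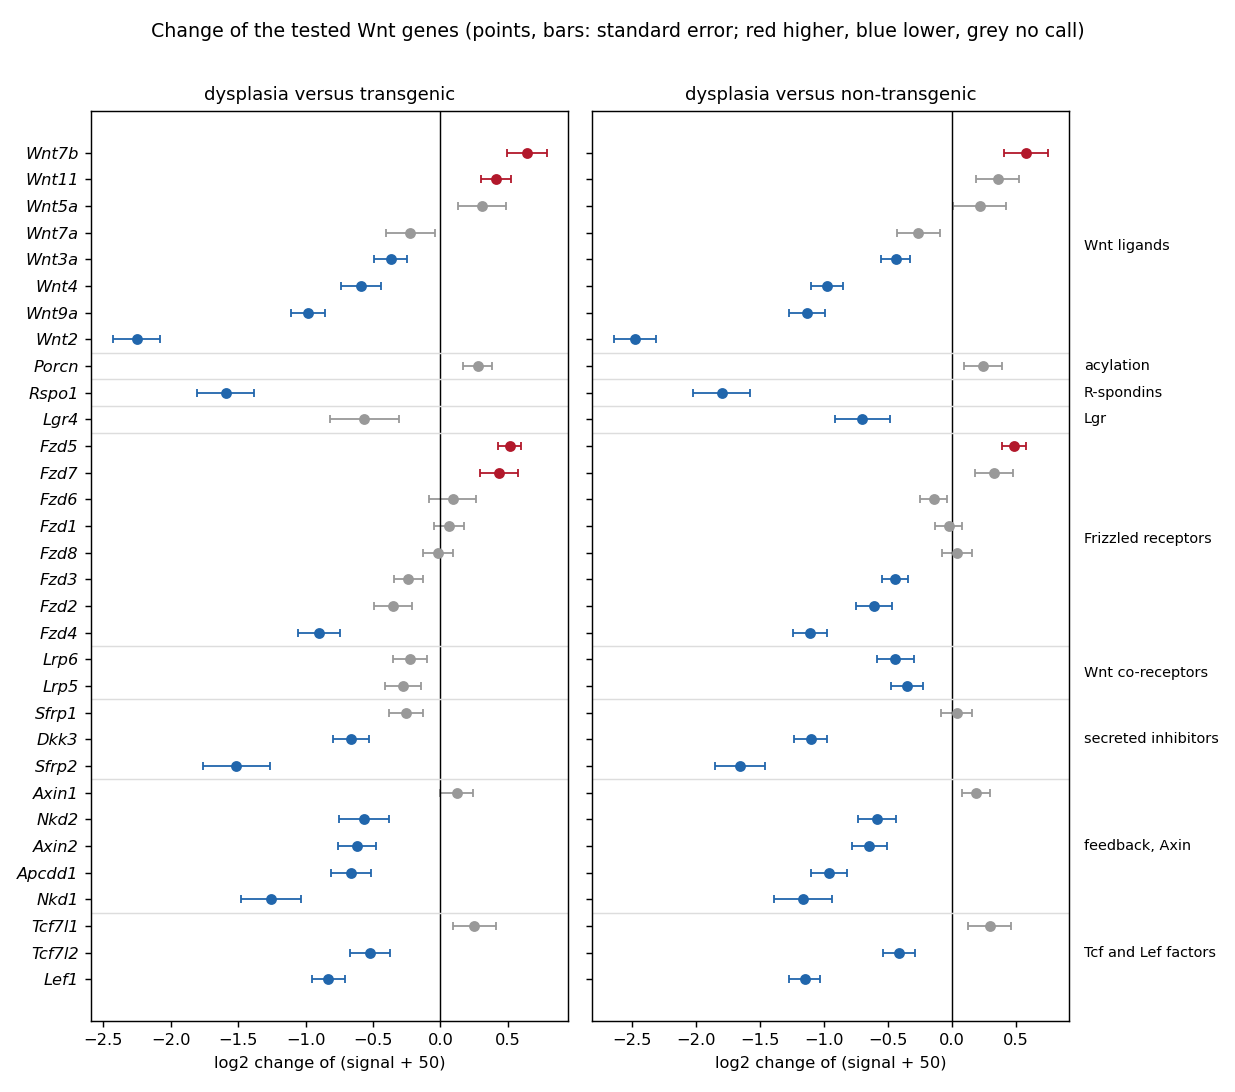
Log2 change of (signal + 50) for the 32 tested Wnt genes, grouped by role, in dysplasia against transgenic tissue (left) and against non-transgenic tissue (right), with bars for the standard error of the fit on 5 arrays per group. Red points are genes called higher, blue points genes called lower and grey points genes with no call; Wnt2, Rspo1 and Sfrp2 lie farthest to the left in both panels.

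The dissected areas also differed in the markers of other lung cells, whose signals were summed per array and are given as ranges in dysplasia, transgenic and non-transgenic tissue in this order. Over 14 endothelial markers the sums were 23124 to 34088, 64422 to 85326 and 75505 to 93994, and 14 of 14 were lower in dysplasia than in transgenic tissue, among them Tie1 (ratio 0.27) and Cldn5 (ratio 0.267). Over 16 fibroblast markers they were 43843 to 63659, 81664 to 101500.0 and 90665 to 103278, with 8 of 15 tested lower and 1 higher, Pdgfra at a ratio of 0.381 and Mfap4 at 0.244. Smooth muscle and pericyte markers were lower in 6 of 9 and higher in 0 (9123 to 12962, 14936 to 19763 and 19681 to 23177), Cspg4 and Des having the smallest p. Mesothelial markers were lower in 5 of 6 and higher in 1, led by Upk1b and Gpm6a, although their sums overlapped (5694 to 7713, 6641 to 7812 and 6655 to 8298). Krt19, the marker that was higher, made up most of the dysplasia sums at 5157 to 7020. Of the lower markers, Upk3b, Msln and Lrrn4 had dysplasia means under 100 (59.4, 65.2 and 34.6) and passed the limit through the other groups. They had to differ in order to be tested, so their calls in either comparison are a description. Macrophage markers were lower in 7 of 8 (25407 to 30589.5, 37473 to 43462 and 25978 to 38548), with Mrc1 and Csf1r leading. Against non-transgenic tissue endothelial (14 of 14), smooth muscle (9 of 9), fibroblast (8 of 15) and mesothelial (5 of 6) markers were again lower, whereas of the macrophage markers 2 were lower, Csf1r and Marco, and 1 higher, Cd68 (median log2 change 0.12 over the 8).

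Epithelial markers did not move together. Of the markers of type 2 pneumocytes, in which the promoter of the transgene is active, 1 of 9 was higher (Etv5, ratio 1.42) and 0 lower, Lpcat1 giving no call at a ratio of 1.26 (sums 131452 to 218600.0, 120669 to 196489 and 109702 to 144261). Type 1 pneumocyte markers were lower in 7 of 10 and higher in 1 (63448 to 96487, 84034 to 133936 and 90929.5 to 115473), with Rtkn2 and Igfbp2 leading. Club cell markers were higher in 4 of 7 and lower in 1 (49554 to 89590.3, 46885 to 54337 and 43487 to 69667), Scgb3a2 and Cyp2f2 among the former. Ciliated cell markers were higher in 2 of 3, Pifo and Rsph1, and lower in 1 (2728 to 4316, 3343 to 4796 and 3758 to 5877), and the others listed were too dim to test. Rsph1 had means of 203 in dysplasia, 55.6 in transgenic tissue and 96.0 in non-transgenic tissue. It passed the limit through dysplasia, in which it is high, so its call in either comparison is a description. T cell markers were called in 0 of 6 by limma, with 0 at an unadjusted p under 0.05 and Cd8a and Cd3d at the smallest p (1442 to 2468, 1508 to 2663 and 1892 to 3679.5). The single markers called against the direction of their list were Eln (fibroblast), Krt19 (mesothelial), Aqp5 (type 1) and Aldh1a1 (club), named after their values were seen. The lower ciliated marker was Tppp3, also named after its values were seen. Without Rsph1 the tested ciliated markers, Pifo higher and Tppp3 lower, have no common direction. Against non-transgenic tissue 4 of 9 type 2 markers were higher (Etv5, Abca3, Lpcat1 and Napsa), type 1 and ciliated markers gave the same counts as before, 1 of 7 club cell markers was higher (Hp) and 1 lower (Aldh1a1), and 1 of 6 T cell markers was lower (Cd3d). These were named after their values were seen. No marker was at a signal of 0 on any array. In dissected tissue, fewer cells of a type and less RNA per cell cannot be told apart, and the part of cell composition in the Wnt gene results was not tested.

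Of 19 Wnt ligands 8 were tested, and Wnt2 had the lowest log2 change of the 32 genes on the scale with an offset of 50. Without an offset that of Sfrp2 was lower (-2.84 against -2.75 for Wnt2 in the comparison with transgenic tissue, and -3.03 against -2.99). Wnt2 signals in dysplasia were 94.5, 68.5, 86.5, 176 and 93.4, against 768, 636, 497, 762 and 695 in transgenic tissue and 705, 653, 857, 906 and 822 in non-transgenic tissue. Dysplasia did not overlap with either other group, and dysplasia 4 was its highest array. Group means were 104 ± 41.6, 672 ± 112 and 788 ± 106, so that transgenic tissue held 6.47 times and non-transgenic tissue 7.60 times the dysplasia signal (log2 change -2.25, standard error 0.18, adjusted p = 5.85e-06, and log2 change -2.47, standard error 0.16, adjusted p = 9.33e-07). The dysplasia mean is close to the limit of 100, and the size of the fold over it is not firm.

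Wnt9a, a ligand known from joint and liver development, read 121, 113, 128, 183 and 94.3 in dysplasia, 287, 281, 311, 335 and 268 in transgenic tissue and 403, 258, 354, 351 and 323 in non-transgenic tissue. All dysplasia arrays lay below all others, again with dysplasia 4 highest of the 5. Transgenic tissue was 2.32-fold and non-transgenic tissue 2.64-fold above it (log2 change -0.98, standard error 0.13, adjusted p = 0.000135, and log2 change -1.13, standard error 0.14, adjusted p = 6.71e-05).

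For Wnt4, needed in kidney and female reproductive tract development, dysplasia gave 227, 234, 223, 373 and 237, transgenic tissue 365, 319.8, 431, 481 and 458 and non-transgenic tissue 568, 511, 505, 554 and 608. Here dysplasia 4 reached into the transgenic range, while the other 4 arrays stayed below it, and dysplasia and non-transgenic arrays were apart. Group means were 259 ± 64.2, 411 ± 67.2 and 549 ± 42.7, and Wnt4 was the only gene of the 32 with every transgenic array below every non-transgenic one. It was lower against both (log2 change -0.59, standard error 0.15, adjusted p = 0.00977, and log2 change -0.98, standard error 0.13, adjusted p = 9.36e-05), but with array 5 of each group left out the first call ended (adjusted p = 0.0540). Its second probe set gave no call in either comparison (adjusted p = 0.182 and 0.17).

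Wnt3a, a canonical ligand of the early embryo, fell less, from 343 ± 47.4 and 361 ± 42.8 to 254 ± 38.2 (log2 change -0.37, standard error 0.12, adjusted p = 0.035, and log2 change -0.44, standard error 0.11, adjusted p = 0.00861). Its ranges met, since the highest dysplasia array read 303 and the lowest transgenic one 266.

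**Figure D2:**
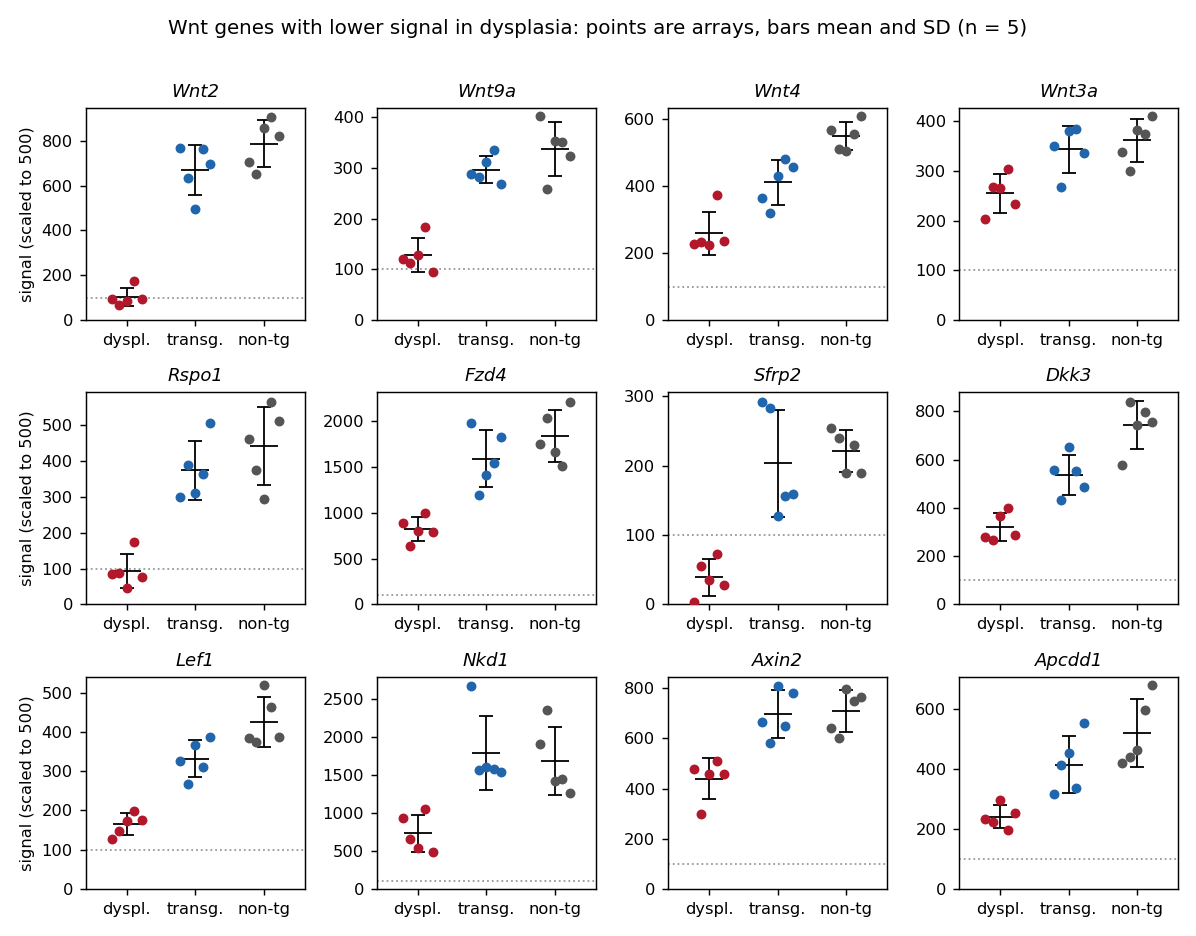
Signal (scaled to a target of 500, linear axes from 0) of 12 Wnt genes that were lower in dysplasia, with a point for each array and bars for mean and SD of the 5 dysplasia, 5 transgenic and 5 non-transgenic arrays. The dotted line is the signal limit of 100; all Sfrp2 points of dysplasia and all but 1 of its Wnt2 and Rspo1 points lie below that line, and those of both other groups above it.

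In contrast, Wnt7b and Wnt11 were higher in dysplasia. Wnt7b, the ligand of developing airway epithelium, read 309.6, 352, 476, 280.2 and 293 in dysplasia and 188, 246, 231, 154 and 183 in transgenic tissue, without overlap. Non-transgenic arrays read 257, 149, 291, 181 and 192 and one of them reached into the dysplasia range. The ratio was 1.71 against transgenic and 1.60 against non-transgenic tissue (log2 change 0.64, standard error 0.15, adjusted p = 0.00628, and log2 change 0.58, standard error 0.17, adjusted p = 0.0181).

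Wnt11, mostly known for beta-catenin-independent signalling, stood at 181, 178, 176, 127 and 180.0 in dysplasia against 89.3, 125, 107, 116 and 135 in transgenic tissue. Dysplasia 4 was the low array and overlapped with the transgenic group. The call held against transgenic tissue (ratio 1.47, log2 change 0.41, standard error 0.11, adjusted p = 0.0143) but not against non-transgenic tissue, where single arrays ranged from 69.1 to 191 (adjusted p = 0.113).

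Wnt5a, which acts in mesenchyme mostly without beta-catenin, averaged 339 ± 110.3 in dysplasia and 256 ± 29.4 in transgenic tissue, and Wnt7a 229.7 ± 59.9 and 275 ± 63.5, with no call in either comparison (adjusted p from 0.231 to 0.429). With the array number as a block Wnt7a was called lower against transgenic tissue (adjusted p = 0.0273). Porcn, the acyltransferase that lipid-modifies Wnt proteins, averaged 637 ± 81.5, 515 ± 45.5 and 536 ± 122. It gave no call (adjusted p = 0.073 and 0.208), and was higher against transgenic tissue with the block (adjusted p = 0.025).

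Rspo1, the R-spondin that passed the signal limit, was lower in dysplasia. It read 84.5, 89.0, 45.4, 174 and 77.8 in dysplasia, 299, 388, 312, 365 and 507 in transgenic tissue and 460.2, 375, 295, 566 and 512 in non-transgenic tissue. Of the dysplasia arrays 4 were below 100 and dysplasia 4 was the highest, still below every other array. The means of 374 ± 82.9 and 442 ± 108 were 3.97 and 4.69 times that of dysplasia (log2 change -1.59, standard error 0.21, adjusted p = 0.00015, and log2 change -1.80, standard error 0.22, adjusted p = 6.13e-05), with a base too dim to fix the fold. With a dysplasia mean of 94.1, it too passed the limit through the other groups, and its test is a description. Lgr4, the R-spondin receptor that passed the signal limit, averaged 211 ± 89.9 in dysplasia, 329 ± 98.5 in transgenic tissue and 357 ± 46.2 in non-transgenic tissue. Its arrays overlapped, and it was called lower against non-transgenic tissue (log2 change -0.70, standard error 0.21, adjusted p = 0.0208; against transgenic tissue adjusted p = 0.121). That call was lost without non-transgenic array 3 (adjusted p = 0.0510) or with Xist as a covariate (adjusted p = 0.0773).

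Frizzled receptors went both ways, with 1 lower and 2 higher of 8 tested against transgenic tissue. To show the genes at which receptor levels parted, the 250 bases before the start of Fzd4, the receptor that was lower, and of Fzd5 and Fzd7, which were higher, are given from RefSeq on GRCm38.p6. They lie at chr7:89404116-89404365 (plus strand), chr1:64737751-64738000 (minus strand) and chr1:59481897-59482146 (plus strand). Capitals mark the letters CTTTGNN on either strand, with an A or a T at both places N, the core that Tcf and Lef factors bind.
Fzd4: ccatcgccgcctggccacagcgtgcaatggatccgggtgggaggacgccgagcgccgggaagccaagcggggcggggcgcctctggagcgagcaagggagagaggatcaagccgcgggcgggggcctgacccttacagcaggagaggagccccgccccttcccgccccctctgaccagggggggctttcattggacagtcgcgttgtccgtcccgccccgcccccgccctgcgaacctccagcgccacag
Fzd5: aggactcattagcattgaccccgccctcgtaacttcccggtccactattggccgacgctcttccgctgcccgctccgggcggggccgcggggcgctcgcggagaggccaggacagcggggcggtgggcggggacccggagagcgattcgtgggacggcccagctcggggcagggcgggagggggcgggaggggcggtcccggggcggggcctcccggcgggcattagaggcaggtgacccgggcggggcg
Fzd7: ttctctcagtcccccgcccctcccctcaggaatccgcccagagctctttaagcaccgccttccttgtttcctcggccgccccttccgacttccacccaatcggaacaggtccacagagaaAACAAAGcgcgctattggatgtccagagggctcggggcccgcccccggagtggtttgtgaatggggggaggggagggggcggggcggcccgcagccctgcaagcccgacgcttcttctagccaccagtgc
The windows of Fzd4 and Fzd5 hold no such letters and that of Fzd7 holds 1 match. GC content was 72.8%, 76.4% and 65.2%, against a median of 52.4% over the promoters of the table. A match was found in 14.8% of 32851 promoters of this length and in 4 of the 24 promoters of the tested Wnt genes that the table lists, 16.7%. A match is a run of letters and not a site in use.

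Fzd4, also the receptor of norrin in blood vessels, read 890.2, 639, 806, 1002 and 795 in dysplasia, 1979.8, 1200.3, 1418, 1545 and 1829 in transgenic tissue and 1759, 2033, 1664, 1513 and 2214 in non-transgenic tissue. The highest dysplasia array was below the lowest of either other group. The change was 1.93-fold and 2.22-fold (log2 change -0.90, standard error 0.15, adjusted p = 0.000866, and log2 change -1.11, standard error 0.14, adjusted p = 5.92e-05).

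Fzd5, a receptor for canonical ligands, went the other way with 842, 883, 937, 923 and 1021 in dysplasia, 648, 588, 609, 691 and 612 in transgenic tissue and 644, 749, 550.2, 649 and 638 in non-transgenic tissue. All dysplasia arrays lay above all others. It was 1.46-fold and 1.43-fold higher (log2 change 0.51, standard error 0.08, adjusted p = 0.00071, and log2 change 0.48, standard error 0.09, adjusted p = 0.00152). Fzd7, bright in all tissues, averaged 2139.8 ± 399, 1557 ± 167 and 1684 ± 256, with dysplasia 1 (1562) inside the transgenic range. It was called higher against transgenic tissue (log2 change 0.43, standard error 0.14, adjusted p = 0.033) and not against non-transgenic tissue (adjusted p = 0.0998). That call was lost in 10 of 25 other settings, for instance with arrays scaled to the same total (adjusted p = 0.0747).

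Fzd2 and Fzd3 were lower against non-transgenic tissue and gave no call against transgenic tissue. Whether the 2 comparisons differ was not tested for these or other genes. Fzd2 read 315, 473, 476, 493 and 537 in dysplasia and 587, 682, 691, 795 and 845 in non-transgenic tissue, without overlap (log2 change -0.61, standard error 0.14, adjusted p = 0.00489). Transgenic arrays reached into the range of both, at 559, 479, 615, 616 and 709.6, where the adjusted p was 0.0827, or 0.0213 with the array number as a block. Of its 2 other probe sets, 1 was lower against non-transgenic tissue without overlap (log2 change -0.56, adjusted p = 0.0032) and 1 gave no call (adjusted p = 0.0678). Fzd3, known for axon guidance and planar cell polarity, read 232, 191, 184, 262 and 242 in dysplasia, 265, 259, 295, 236 and 297 in transgenic tissue and 272, 337, 331, 325 and 331 in non-transgenic tissue (log2 change -0.44, standard error 0.10, adjusted p = 0.00499). Dysplasia and non-transgenic arrays were apart, but a dimmer Fzd3 probe set pointed the other way without a call (log2 change 0.17, adjusted p = 0.223). Against transgenic tissue that probe set also pointed up without a call (log2 change 0.23, adjusted p = 0.0626), where the brightest gave -0.24. With the mean of the probe sets the call of Fzd3 against non-transgenic tissue was lost (adjusted p = 0.177). Fzd1, Fzd6 and Fzd8 gave no call, with ratios of dysplasia to either other group between 0.91 and 1.05.

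The co-receptors Lrp5 and Lrp6 had their lowest means in dysplasia. Lrp5 averaged 315 ± 53.0, 393 ± 63.4 and 416 ± 63.4, and Lrp6 1462 ± 191, 1725 ± 281 and 2026 ± 458, with overlap between all groups. Both were called against non-transgenic tissue (Lrp5 log2 change -0.35, standard error 0.12, adjusted p = 0.0389; Lrp6 log2 change -0.44, standard error 0.14, adjusted p = 0.0286). Against transgenic tissue the calls came with the array number as a block alone (adjusted p = 0.0157 and 0.0275). The non-transgenic calls ended in 12 of 25 other settings for Lrp5 and in 7 of 25 for Lrp6. A dimmer Lrp6 probe set gave no call against non-transgenic tissue (log2 change -0.15, standard error 0.45, adjusted p = 0.822).

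Among secreted inhibitors 3 of 10 were tested. Sfrp2, which binds Wnt ligands through a Frizzled-like domain, read 3.48, 54.9, 35.3, 72.3 and 28.6 in dysplasia, against 292, 283, 128, 157 and 159 in transgenic tissue and 255, 241, 189, 231 and 189.5 in non-transgenic tissue. All 5 dysplasia arrays were under the signal limit and all 10 others above it. The log2 change was -1.51 ± 0.25 (standard error, adjusted p = 0.000688) and -1.65 ± 0.20 (adjusted p = 4.48e-05). No fold is given over signals this dim. Since it passed the limit only through the groups in which it is high, its test was bound to find a difference and is a description.

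Dkk3, a divergent member of the Dickkopf family, read 279.5, 268, 368, 398 and 286 in dysplasia, 556, 430.5, 650.0, 554 and 486 in transgenic tissue and 578, 839, 742, 797 and 756 in non-transgenic tissue. Every dysplasia array lay below all others, by 1.67-fold and 2.32-fold in the means (log2 change -0.66, standard error 0.13, adjusted p = 0.00274, and log2 change -1.10, standard error 0.13, adjusted p = 4.57e-05). A second probe set had the same direction without a call against transgenic tissue (adjusted p = 0.0608). Sfrp1 averaged 237 ± 41.6, 292 ± 44.0 and 228 ± 31.6 and gave no call.

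Of 5 negative regulators inside the cell or its membrane, most of them induced by the pathway itself, 4 were lower. Nkd1, an inhibitor that binds Dishevelled, read 935, 656, 543, 1046 and 488 in dysplasia, 2666, 1566, 1599, 1578 and 1544 in transgenic tissue and 1912, 2351, 1424, 1447 and 1264 in non-transgenic tissue. Dysplasia was apart from both groups, whose means were 2.44-fold and 2.29-fold above it (log2 change -1.25, standard error 0.22, adjusted p = 0.0012, and log2 change -1.16, standard error 0.23, adjusted p = 0.00163). Axin2, the usual reporter of beta-catenin activity, read 477, 297, 458, 509 and 459.6 in dysplasia. It stood at 665, 579.7, 810.4, 650.3 and 780.0 in transgenic tissue and 641, 602, 797, 747 and 763 in non-transgenic tissue, all above the highest dysplasia array. The fall was 1.58-fold and 1.61-fold (log2 change -0.62, standard error 0.14, adjusted p = 0.00607, and log2 change -0.65, standard error 0.14, adjusted p = 0.00285).

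Apcdd1, a membrane inhibitor of Wnt receptors, read 232, 223, 298, 196 and 253 in dysplasia, 316, 413, 451, 335 and 553 in transgenic tissue and 419.9, 441, 463, 596 and 678 in non-transgenic tissue. No dysplasia array reached the lowest of the others (log2 change -0.66, standard error 0.15, adjusted p = 0.00507, and log2 change -0.96, standard error 0.14, adjusted p = 0.000236). Its brightest probe set is of a kind whose probes may match other transcripts. The 3 further probe sets tested for the gene were lower against transgenic tissue as well, but most of these are of the same kind. The further probe set that is not of this kind was lower against transgenic tissue without overlap (log2 change -0.73, adjusted p = 0.0011). Nkd2 averaged 276 ± 54.8, 439 ± 121 and 438 ± 79.5 with overlap (log2 change -0.57, standard error 0.18, adjusted p = 0.0334, and log2 change -0.58, standard error 0.15, adjusted p = 0.00853). The call against transgenic tissue was lost in 13 of 25 settings, and its other probe sets gave none in that comparison (adjusted p = 0.217 and 0.355). Against non-transgenic tissue the brighter of these was lower without overlap (log2 change -0.46, adjusted p = 0.00278) and the dimmer gave no call (adjusted p = 0.0636). Axin1, the constitutive scaffold of the destruction complex, averaged 729.9 ± 121, 663 ± 75.2 and 628 ± 21.3 with no call.

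Of the transcription factors, Lef1 read 127, 148, 174, 199 and 177 in dysplasia, 327, 267, 367, 312 and 388 in transgenic tissue and 385, 375, 520.0, 464 and 386 in non-transgenic tissue. Every dysplasia array was below every other, and the means differed 2.01-fold and 2.59-fold (log2 change -0.83, standard error 0.12, adjusted p = 0.000327, and log2 change -1.15, standard error 0.12, adjusted p = 1.94e-05). Tcf7l2 averaged 612 ± 114, 899 ± 156 and 825 ± 76.8 with overlapping arrays (log2 change -0.52, standard error 0.15, adjusted p = 0.0186, and log2 change -0.41, standard error 0.12, adjusted p = 0.0183). A dimmer Tcf7l2 probe set gave no call (adjusted p = 0.437 and 0.598). Tcf7l1, which mostly represses targets, averaged 1122 ± 237, 926 ± 147 and 900.0 ± 169.7 and gave no call (adjusted p = 0.259 and 0.177). It was higher in both comparisons with the array number as a block (adjusted p = 0.0263 and 0.0441). A second Tcf7l1 probe set was called higher against non-transgenic tissue (1085 against 724, adjusted p = 0.0212).

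**Figure D3:**
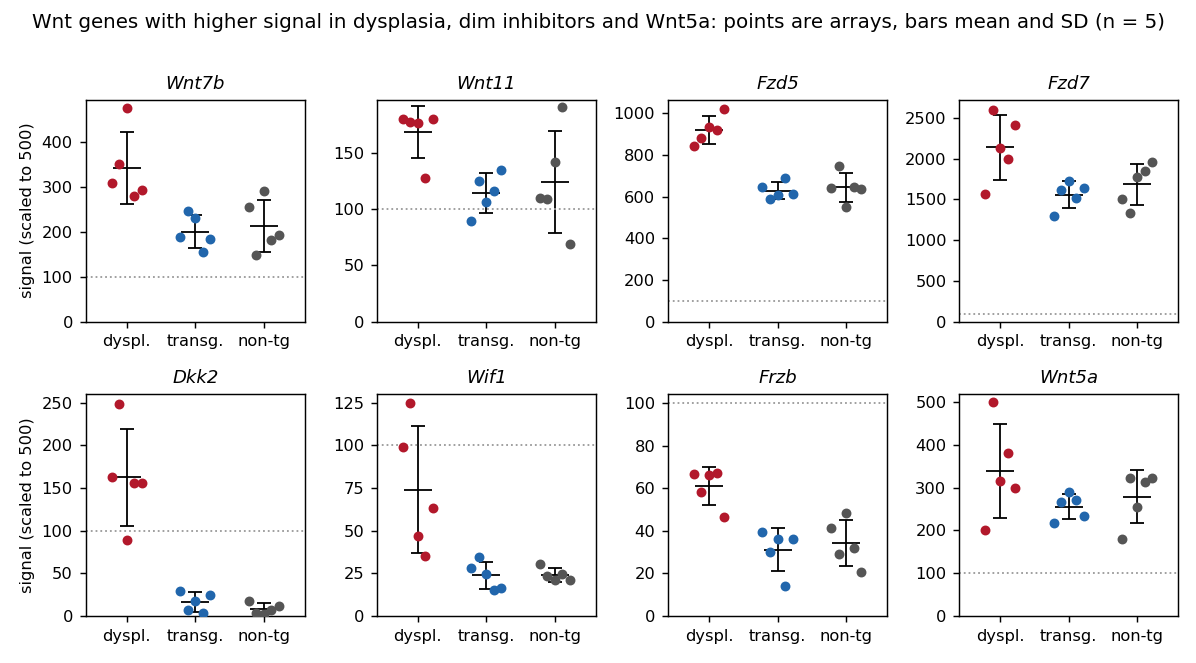
Signal (scaled to a target of 500, linear axes from 0) of the Wnt genes that were higher in dysplasia, of the dim inhibitors Dkk2, Wif1 and Frzb, and of Wnt5a, with a point for each array and bars for mean and SD of 5 arrays per group. The dotted line is the signal limit of 100; dysplasia points of Wnt7b, Fzd5, Dkk2, Wif1 and Frzb lie above all points of the transgenic group.

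Below the signal limit stayed 26 of the Wnt genes, and 23 of these had no group mean above 100. When the limit was dropped, 3 of the 26 were higher and 2 lower against transgenic tissue, and 3 were higher and 4 lower against non-transgenic tissue. Of 6590 genes at or under the limit, 4.25% were higher and 5.78% lower in the first comparison, and 4.42% and 10% in the second. Dkk2, a Dickkopf protein that acts on Lrp5 and Lrp6, read 163, 248, 89.6, 156 and 156 in dysplasia, 29.5, 6.56, 17.3, 3.31 and 24.6 in transgenic tissue and 17.4, 3.68, 2.11, 7.29 and 12.1 in non-transgenic tissue. Of its 5 dysplasia arrays 4 were above 100, and the highest of the other 10 read 29.5 (log2 change 1.66, adjusted p = 0.00012, and 1.83, adjusted p = 1.85e-05).

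Wif1 and Frzb, both extracellular Wnt-binding inhibitors, were also higher, though their means stayed under 100. Wif1 read 99.1, 125, 47.0, 35.3 and 63.3 in dysplasia and at most 34.6 in transgenic tissue (adjusted p = 0.0221). Frzb read 66.6, 58.1, 66.4, 67.2 and 46.3 against at most 39.4 (adjusted p = 0.0108). Rspo3, a further R-spondin, read 12.0, 19.9, 17.7, 34.2 and 20.7 in dysplasia, 73.6, 94.0, 96.7, 97.2 and 90.5 in transgenic tissue and 107, 176, 119.8, 135 and 90.0 in non-transgenic tissue. Like Rspo1 it was lower in dysplasia without overlap (adjusted p = 4.28e-05 and 3.07e-05). Wnt5b was lower against both groups (means 49.0, 94.6 and 110.3; adjusted p = 0.0203 and 0.00974). Sfrp4 and Rspo2 were lower against non-transgenic tissue and gave no call against transgenic tissue (adjusted p = 0.0123 and 0.0477). The other 19 dim genes, with Lgr5, Lgr6, Rspo4, Dkk1, Dkk4, Sfrp5, Fzd9, Fzd10 and its opposite-strand transcript Fzd10os among them and 10 further Wnt ligands, gave no call.

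Unaltered transgenic tissue was not called different from non-transgenic tissue for any of the 32 genes (limma), where 1.59% of all genes were higher and 0.121% lower. At an unadjusted p under 0.05 there were 5, with Wnt4, Dkk3, Lef1 and Fzd3 lower and Sfrp1 higher. Adjusted p-values of these were 0.149 for Dkk3, 0.152 for Wnt4, 0.287 for Lef1, 0.31 for Sfrp1 and 0.385 for Fzd3. Without overlap 1 gene lay below, Wnt4, and 0 above, beside 1.34% and 4.42% of all genes. The log2 change was negative in 26 of 32, with a median of -0.09 against -0.01 for all genes. Ages and sexes differ between these groups.

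A second list held 80 other genes of the pathway, from Dishevelled and Gsk3 to glypicans and the planar polarity genes. Of 68 tested, 9 were higher and 18 lower in dysplasia than in transgenic tissue, and 11 and 25 against non-transgenic tissue. These are 13.2% and 26.5% beside 18.6% and 21% of all tested genes, and 16.2% and 36.8% beside 24.7% and 26%. Gpc6, a glypican that carries ligands on the cell surface, rose from 85.1, 151, 127, 90.5 and 95.6 to 993, 1146, 1230.1, 988 and 1088, 9.91-fold over a base near the limit (log2 change 2.85, standard error 0.13, adjusted p = 4.2e-07). Celsr1, a planar polarity cadherin, read 1196, 1368, 1825, 1499.9 and 1439.8 in dysplasia, 399, 477, 454, 386 and 362 in transgenic tissue and 269.6, 239.7, 215, 302 and 299 in non-transgenic tissue. The 3 groups were fully apart, and Celsr1 was the only gene of the list called between transgenic and non-transgenic tissue (adjusted p = 0.0306).

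Lower with the smallest p-values were Dact3, an antagonist of Dishevelled (ratio 0.449, adjusted p = 5.54e-06), and Prickle1 of the planar polarity set (ratio 0.218, adjusted p = 1.73e-05). Sox17, which restrains beta-catenin and is an endothelial factor too (ratio 0.328), and the glypican Gpc3 (ratio 0.255) followed. Of the core of the pathway, Ctnnb1, Apc, Gsk3a, Gsk3b, Dvl1 and Dvl2 gave no call, and these were named after their values were seen. Axin2, Lef1 and Tcf7l2, described above, were lower against both other tissues. Rnf43, a ligase that removes Frizzled from the surface, was higher (ratio 1.45, adjusted p = 0.00533), and its relative Znrf3 lower (ratio 0.705, adjusted p = 0.00513).

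Targets of beta-catenin and Tcf split in direction. Of 28 tested on a list of known targets, 11 were higher and 13 lower in dysplasia than in transgenic tissue, and 14 and 12 against non-transgenic tissue. These are 39.3% and 46.4% beside 18.6% and 21% of all tested genes, and 50% and 42.9% beside 24.7% and 26%. Among the 13 are Lef1, Sfrp2, Nkd1, Apcdd1 and Axin2 of the genes above, and without these 11 were higher and 8 lower of 23, with a median log2 change of 0.36. Sfrp2 is counted as lower in both comparisons, although it passed the signal limit through the groups in which it is high. Its calls support nothing about the targets. Myc, the growth-promoting transcription factor, read 622, 605, 826, 686 and 553 in dysplasia and 263, 237, 278, 232 and 228 in transgenic tissue (2.66-fold, log2 change 1.24, standard error 0.11, adjusted p = 1.44e-05). Sp5, a transcription factor induced by Wnt, read 730.3, 1092, 1207, 961 and 1086 against 237, 560.3, 319.9, 279.8 and 259 (3.07-fold, log2 change 1.52, standard error 0.21, adjusted p = 0.000183). Birc5, which blocks apoptosis, rose 2.71-fold and the cell-cycle gene Ccnd1 2.19-fold.

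Tnfrsf19, a receptor of the TNF family, fell the other way from 1026 ± 179 to 258 ± 68.3 (log2 change -1.82, standard error 0.17, adjusted p = 1.92e-05), and Jun reached a ratio of 0.495. Between transgenic and non-transgenic tissue 0 targets were called by limma and 11 had an unadjusted p under 0.05, with Jun, Sp5 and Ephb3 at the smallest p (adjusted p = 0.0796, 0.178 and 0.209). Most of these targets are also controlled by other pathways.

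**Figure D4:**
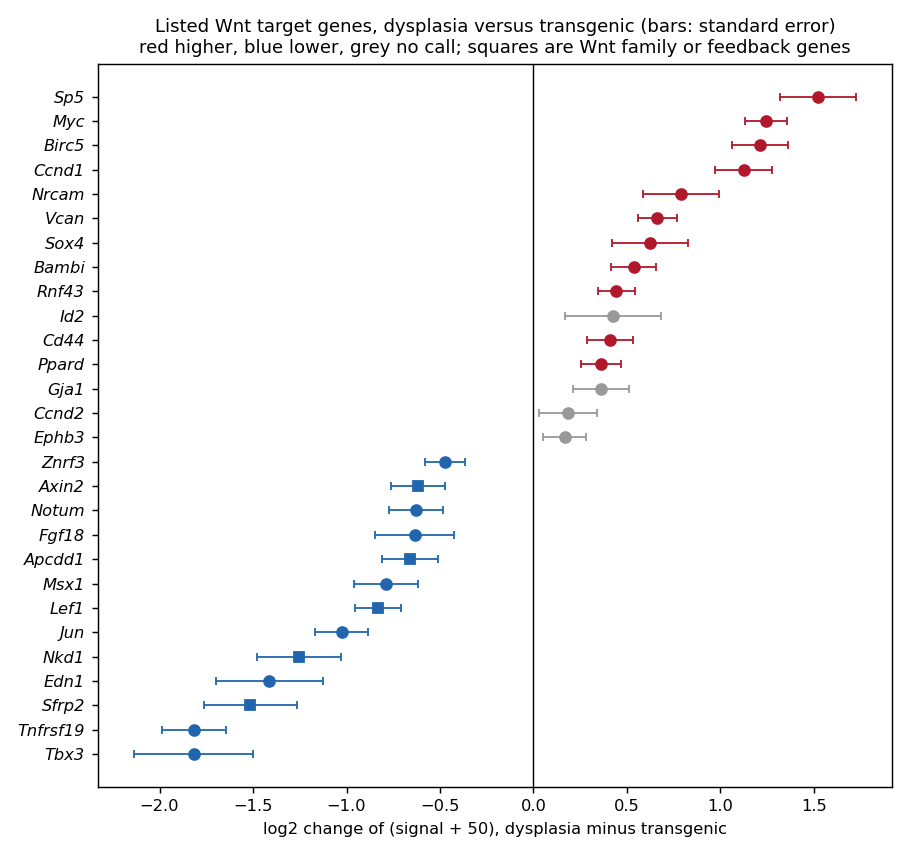
Log2 change of (signal + 50) in dysplasia against transgenic tissue for the 28 tested genes on the list of Wnt targets, with bars for the standard error of the fit on 5 arrays per group. Red marks genes called higher, blue genes called lower and grey no call. The 5 squares are members of the Wnt gene set, all on the lower side, and Sfrp2 among them passed the signal limit through the other groups.

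Probe sets of a gene mostly pointed the same way. For 13 of the tested genes 18 further probe sets passed the limit, and 16 of them had the direction of the brightest one in each comparison. Where the brightest was called, 6 of 11 further probe sets gave the same call against transgenic tissue and 9 of 15 against non-transgenic tissue, and none the opposite call.

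Array 4 or array 5 of each group was left out as well, a choice made after the data were seen. All 12 genes without overlap between dysplasia and transgenic tissue kept their calls in both settings. They were picked by lack of overlap in these same arrays, so this outcome was largely fixed in advance. Rspo1 and Sfrp2 are among them and had to differ in order to be tested. Fzd7, Nkd2 and Wnt3a lost their calls in both settings, Tcf7l2 without array 4 and Wnt4 without array 5, while Lgr4 was called lower without array 4. This left 3 genes higher in each setting, and 12 lower without array 4 and 11 without array 5, with no share of all genes beside these counts. Against non-transgenic tissue Lrp5, Lrp6 and Tcf7l2 lost their calls without array 4 and Wnt11 was called higher, and no call changed without array 5.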

How the data were processed

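Transcripts were measured on Affymetrix mouse arrays with 45101 probe sets, of which 64 are controls. The authors made the deposited intensity values with GCOS (version not given in the sources used here) at a target signal of 500, and the mean after trimming 2% at each end was 500.0 on every array. The methods also describe Total Intensity Normalization and SAM on the raw scans. SAM was not run, and raw scans and detection calls were not used here. The annotation gave 34945 probe sets 1 gene symbol, 932 several and 9160 none, and 34741 of the single symbols matched the mouse gene table. The number of arrays limits the precision.

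Probe sets with a mean signal above 100 (21658) were tested as log2(signal + 50) in limma 3.58.1 (R 4.3.3), 5 against 5 arrays unpaired, with Benjamini-Hochberg adjustment over all of them and a threshold of 0.05. The fit was tested on simulated data. A log2 change on this scale understates that of dim genes, and ratios are of mean signals. Genes and lists were chosen with earlier results of these data known. Every tested member was named, with all arrays where a called gene had no group overlap. From the lists of other pathway genes and of targets the 8 smallest p against transgenic tissue and the 4 smallest between transgenic and non-transgenic tissue were named, and from each marker list the 2 smallest. Rnf43, Znrf3, Birc5, Ccnd1 and the core pathway genes were named after their values were seen.

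Per the methods each mouse gave both dysplastic and unaltered tissue. Same-numbered arrays of these groups deviated from their group means with correlations of 0.219 to 0.773, and a fit blocked on the array number is given where it changes a call. That the numbers mark mice is not shown by this, since transgenic and non-transgenic arrays of one number, which are different mice, gave 0.135 to 0.793, and arrays 4 differ in their sex-linked signals. Promoter sequences are from RefSeq (GRCm38.p6). Alternatives changed the offset, the scaling, the signal limit, the samples fitted, the variance model, covariates, the probe set rule, the threshold and the arrays used.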

Additional observations from a re-analysis of the deposited data

Results flagged for a closer look

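On 10 of 96 sets of 5 arrays, a single array lay far from the other 4 of its group (gap over range above 0.71), where chance flags about 1 in 20. Of these, 3 were the array dysplasia 4, which also carried Xist beside Y-linked signal and the highest endothelial (34088) and fibroblast (63659) marker sums of its group. It read 176 for Wnt2 (others 68.5 to 94.5), 373 for Wnt4 (others 223 to 237) and 127 for Wnt11 (others 176 to 181), each time nearer to the transgenic level. The part of the marker sums in these values was not tested.

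Dysplasia 2 read 297 for Axin2 (others 458 to 509), and dysplasia 1 read 315 for Fzd2 (others 473 to 537). Transgenic 1 read 849 for Fzd6 (others 1439.6 to 1659) and 2666 for Nkd1 (others 1544 to 1599). Non-transgenic 1 read 272 for Fzd3 (others 325 to 337) and 284 for Sfrp1 (others 210.2 to 223). Non-transgenic 5 read 2816 for Lrp6 (others 1724 to 2031).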

How the results depend on the processing

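With the threshold unchanged, 12 of 18 genes called against transgenic tissue kept their call in every setting that tested them, as did 16 of 21 against non-transgenic tissue, and none changed direction. Of these, Sfrp2 was not tested at a limit of 200, which leaves 11 and 15 that were tested and called in all 25. Without the signal limit 7 genes were higher against transgenic tissue and 5 against non-transgenic tissue, the additions being dim, and 15 and 22 were lower. With the limit set on the highest group mean, a choice made after the data were seen, 5 were higher and 16 lower against transgenic tissue, and 3 and 21 against non-transgenic tissue, with Dkk2 added to the higher and Rspo3 and Wnt5b to the lower. With the actin ratio as a covariate 5 were higher against non-transgenic tissue, and the cause was not tested. At a limma adjusted p up to 0.001 and a ratio from 2, 0 were higher in either comparison, and 5 and 9 were lower. Rspo1 and Sfrp2, which had to differ in order to be tested, are among the lower genes in both. Apart from the setting without the signal limit, no share of all genes is given beside the counts of this section. They describe the calls and are not set against other genes. Leaving out 1 array in turn gave 3 to 5 higher and 12 to 15 lower against transgenic tissue, 2 to 3 and 17 to 19 against non-transgenic tissue, and 0 between transgenic and non-transgenic tissue.

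With the array number as a replicate block, 6 genes were higher and 18 lower against transgenic tissue, 3 and 19 against non-transgenic tissue, and 0 in the third comparison. The block added Fzd2, Lrp5, Lrp6, Porcn, Tcf7l1 and Wnt7a in the first and Tcf7l1 in the second, and removed none. Same-numbered arrays of different mice also deviated together in part (-0.00366 to 0.727 for dysplasia and non-transgenic, 0.135 to 0.793 for transgenic and non-transgenic arrays). With array 4 of each group left out 3 genes were higher and 12 lower against transgenic tissue, and with array 5 left out 3 and 11. The calls of Nkd2, Wnt3a, Fzd7, Tcf7l2, Wnt11 and Wnt4 against transgenic tissue, and of Lrp5, Lrp6, Lgr4, Tcf7l2 and Fzd3 against non-transgenic tissue, were lost in at least 1 setting. Wnt11 was not tested at a limit of 200 either. Signals near 100 limit what can be said of dim genes.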
